A study of Mus musculus with 28 samples.

Results

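Glucocorticoid receptors and response genes were followed through the maturation of mouse peripheral nerve. The set holds 10 genes of the 41605 in the count table: the receptors Nr3c1 and Nr3c2, the steroid enzyme Hsd11b1, and the response genes Zbtb16, Etnppl, Fkbp5, Tsc22d3, Sgk1, Klf9 and Pdk4. They were chosen by name, with their scaled levels over the stages in view, among them the late postnatal rises of Zbtb16 and Etnppl. Their levels and the differences between stages are therefore given as a description. No p-value of a member is printed, and where members called by the fit over all genes are counted, the share of all genes called stands beside the count.

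Bulk poly-A RNA sequencing covered 28 libraries at 7 stages, with 4 libraries per stage: E13 and E17 (embryonic days, spelled E13.5 and E17.5 in the design text), P1, P5, P14 and P24 (postnatal days) and P60, a young adult age. The wild-type C57BL/6J mice were untreated and not perfused, and each stage had 2 male and 2 female samples. An E13 library held various nerves pooled from 2 embryos, although its label names sciatic nerve, and an E17 library held sciatic nerves pooled from 2 embryos. A postnatal library held the sciatic nerves of 1 mouse. The epineurium and perineurium were stripped off as far as possible from E17 onwards but not at E13. The age of the E13 samples therefore cannot be told apart from their tissue and dissection. Zeitgeber time and circulating corticosterone are not given in the sources used here.

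Total counts per library ran from 13899895 to 37662780. The 5 Schwann cell markers given here (Sox10, S100b, Prx, Mbp and Ncmap) were detected at every stage from P5 on, with a summed level of 32613 to 70334 CPM (counts scaled to a common library total, with TMM factors). In 3 libraries the counts followed the GC content of the genes, with slopes of -0.93 (E13 replicate 1), 0.73 (E13 replicate 4) and -0.43 (P1 replicate 1) log2 units per 10 percentage points of GC, against -0.16 to 0.20 in the other 25. In bulk tissue, fewer cells of a type and less RNA per cell cannot be told apart.

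Glucocorticoids such as corticosterone bind the glucocorticoid receptor, the product of Nr3c1, which is held by chaperones in the cytoplasm, moves to the nucleus on binding and regulates genes at glucocorticoid response elements. The mineralocorticoid receptor, the product of Nr3c2, binds the same hormone with higher affinity and recognises the same element. How much hormone reaches the receptors also depends on enzymes inside the cell: Hsd11b1 regenerates active corticosterone from its inert keto form, and Hsd11b2 inactivates it. Schwann cells are known to express the glucocorticoid receptor, and glucocorticoids are known to act on myelin formation.

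The glucocorticoid response element is a pair of inverted 6-base arms with 3 free bases between them, and was searched for as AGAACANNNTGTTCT on both strands, in windows of 250 bases before to 50 bases after each annotated transcript start (RefSeq, GRCm38.p6). A single arm was searched for as AGAACA or TGTTCT, so every full element also counts as a pair of arms. Of 32851 mouse promoters, 3 (0.00913%) held the full element and 6233 (19.0%) held a single arm. The 16 promoters of 8 of the 10 genes were in the table, and 1 of them, a promoter of Sgk1, held the full element. An arm lay in 4 of the 16 (25.0%), of which 3 belonged to Sgk1 and 1 to Tsc22d3. The 38 promoters of other response genes examined here held the full element in 0 and an arm in 5. The Sgk1 promoter stretch is shown because it carries the full element, at chr10:21993640-21993889 (plus strand), ending at the base before the transcript start, with the 15 bases of the element (positions -189 to -175) in capitals:
Sgk1 promoter: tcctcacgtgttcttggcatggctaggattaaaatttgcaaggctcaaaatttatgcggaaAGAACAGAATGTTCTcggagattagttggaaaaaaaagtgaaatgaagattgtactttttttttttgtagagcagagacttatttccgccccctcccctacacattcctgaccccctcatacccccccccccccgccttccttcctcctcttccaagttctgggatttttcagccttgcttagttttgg
That stretch also holds a lone TGTTCT at position -242, left in lower case. Further lone arms of Sgk1 at chr10:21881977-21882006 and chr10:21992198-21992222 (plus strand) and of Tsc22d3 at chrX:140600690-140600719 (minus strand) are shown with their neighbouring bases, 5′ to 3′, and the arm in capitals:
Sgk1, position -195 from its transcript start: aagggaatccgtTGTTCTgtgttttctgtg
Sgk1, position -13 from its transcript start: aaagtgggactcAGAACAgaaaggc
Tsc22d3, position -185 from its transcript start: ccgcattcgacaTGTTCTaagttctgagac
The windows of Nr3c2, Hsd11b1, Etnppl, Fkbp5, Klf9 and Pdk4 held no match. A match in a window is a match of letters only, and no match says nothing of elements elsewhere.

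Nr3c1, the glucocorticoid receptor gene (ENSMUSG00000024431, chromosome 18, 39410545 to 39519421, minus strand, GRCm38), was read in every library. Its level at E13 was 41.0, 32.2, 20.3 and 12.1 CPM in replicates 1 to 4, and at E17 it was 91.5, 86.7, 88.9 and 90.4 CPM. All E17 libraries lay above all E13 libraries, and the log2 difference was 1.76 ± 0.20 (SE). The E13 libraries spread widely, and the first and last of the 4 are those whose counts followed GC content; without the 3 GC-affected libraries the log2 difference was 1.78. The mean (± SD, n = 4 at every stage) was 79.8 ± 8.78 CPM at P1 and 102 ± 8.84 CPM at P5. It reached 156 ± 12.2 CPM at P14, 171 ± 11.9 CPM at P24 and 169 ± 5.81 CPM at P60. The libraries of P14, P24 and P60 overlapped, so no order can be read among these stages, and P24 to P60 gave a log2 difference of -0.01 ± 0.19.

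Nr3c2, the mineralocorticoid receptor gene (ENSMUSG00000031618, chromosome 8, 76899442 to 77245012, plus strand), had a different course. It stood at 5.001, 5.73, 3.29 and 3.37 CPM in the E13 libraries and at 2.03, 1.00, 2.06 and 2.83 CPM in the E17 libraries, its lowest stage, which rests on 19 to 53 counts per library. From 3.90 ± 0.546 CPM at P5 it went to 10.03 ± 0.252 CPM at P14, 13.9 ± 1.92 CPM at P24 and 21.4 ± 1.57 CPM at P60. The 4 libraries of P5, P14, P24 and P60 formed 4 groups without overlap, in ascending order. The log2 difference of P14 over P5 was 1.36 ± 0.20, that of P24 over P14 was 0.47 ± 0.19 and that of P60 over P24 was 0.62 ± 0.19. Gm10649, an antisense gene, shares 247 exon bases with Nr3c2 and had 13 counts over all libraries against 4664 of Nr3c2.

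Per length, in reads scaled by exon length and library size (RPKM), Nr3c1 was the more abundant receptor transcript in every library. The ratio of Nr3c1 to Nr3c2 RPKM within a library was 4.96 ± 1.60 at E13 and 43.5 ± 20.1 at E17, where it ran from 26.9 to 72.8. The P1 and P5 libraries gave 21.0 ± 2.99 and 22.2 ± 2.33, and those of P14 and P24 gave 13.2 ± 1.23 and 10.5 ± 1.17. At P60 it was 6.67 ± 0.448, between 6.05 and 7.12 in the 4 libraries. The P60 ratios lay below those of every other postnatal stage and overlapped those of E13, which ran from 3.01 to 6.90. The highest E17 ratio belonged to the library with 19 counts of Nr3c2.

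**Figure D1:**
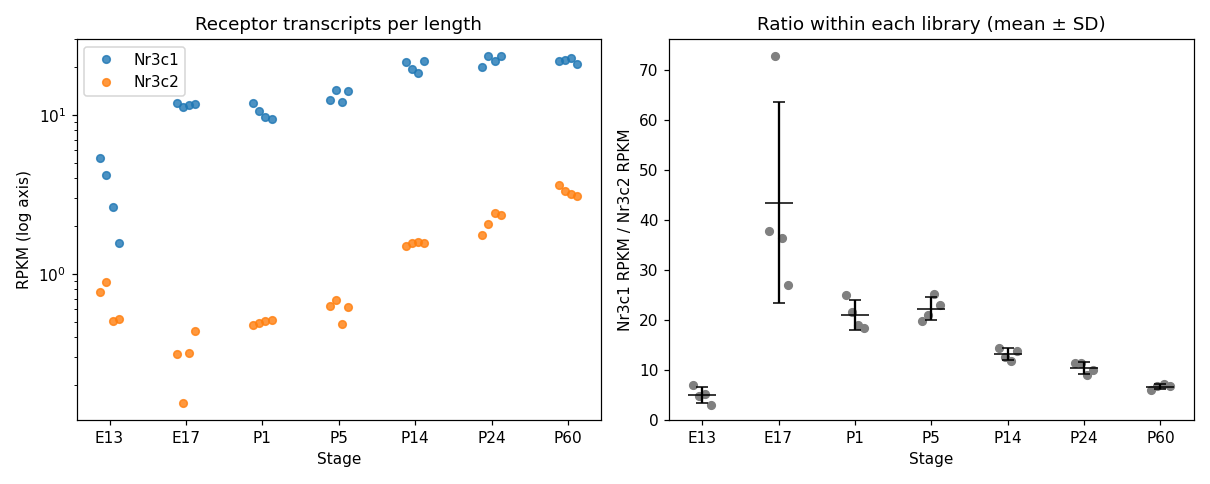
Left, RPKM (log axis) of Nr3c1 and Nr3c2 in each library by stage, 1 point per library. Right, the Nr3c1 to Nr3c2 ratio in each library, with the mean (wide bar) and SD (error bar) of 4 libraries: the mean ratio went from 43.5 at E17 to 6.67 at P60, where Nr3c2 was highest, and the Nr3c1 libraries of P14, P24 and P60 overlapped.

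Hsd11b1, the enzyme that regenerates active corticosterone (ENSMUSG00000016194, chromosome 1, 193221634 to 193264075, minus strand), was near the limit of detection at E13, with 1 to 7 counts per library. Its mean stayed between 0.949 and 3.34 CPM from E17 to P24. The P24 libraries held 4.26, 3.14, 2.67 and 3.31 CPM and the P60 libraries 18.6, 18.4, 15.9 and 15.7 CPM. Every P60 library lay above every earlier library, and the log2 difference from P24 to P60 was 2.36 ± 0.29. Hsd11b2, the inactivating enzyme, fell from 4.81 CPM at E13 to 0.196 CPM at E17 (log2 fold change -4.54 ± 0.85, adjusted p = 6.8e-05, edgeR's quasi-likelihood test, over all 17700 genes tested) and was at 0 counts in all 4 libraries of P60. H6pd, which supplies the cofactor of Hsd11b1, rose from 22.1 to 49.0 CPM from E13 to E17 (1.15 ± 0.17, adjusted p = 1.4e-06 by the same test) and stood at 55.3 CPM at P24 and 79.0 CPM at P60 (0.52, not called).

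Each of the 7 response genes had its highest mean at P60. The libraries were lowest at P1 for Tsc22d3, at E13 for Klf9 and at E13 and E17 for Sgk1. Zbtb16 had its lowest means at P5 and P1, and the P5 libraries overlapped with those of E17. For Fkbp5 the lowest means, at P5 and P24, had overlapping libraries, as had those of Pdk4 at E13 and P5, and Etnppl had no readable order before P24. Zbtb16, a transcription factor of the BTB zinc finger family (ENSMUSG00000066687, chromosome 9, 48654297 to 48836222, minus strand), was at 0 to 0.214 CPM in the 8 libraries of P1 and P5, which is 0 to 5 counts. At P14 it was at 12.6, 10.6, 10.6 and 7.18 CPM, a log2 difference from P5 of 6.17 ± 0.53. At P24 the libraries separated, at 4.89, 2.09, 2.12 and 9.14 CPM. At P60 they held 10.96, 14.4, 18.5 and 20.8 CPM. The P60 libraries lay above all those of P24 but overlapped with P14, and P14 overlapped with P24. An earlier level was present at E13, at 3.39 ± 0.507 CPM, and was lower at E17, at 0.558 ± 0.388 CPM.

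Etnppl, a lyase that breaks down phosphoethanolamine (ENSMUSG00000019232, chromosome 3, 130617448 to 130637521, plus strand), was near 0 in every library before the adult stage. The 24 libraries of E13 to P24 held 0 to 13 counts each, and the P24 libraries held 0.552, 0.157, 0.247 and 0.489 CPM. At P60 the level was 106, 115, 156 and 116 CPM, with 1454 to 2511 counts per library. The log2 difference from P24 to P60 was 8.42 ± 0.41. Against P1, where no library exceeded 2 counts, P60 was at least 989-fold higher, taking 3 counts in the shallowest P1 library as the floor. Order among the stages before P24 cannot be read at this depth.

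Tsc22d3, which encodes the leucine zipper protein GILZ and mediates anti-inflammatory effects of glucocorticoids (ENSMUSG00000031431, chromosome X, 140539528 to 140600659, minus strand), had the highest level of the 10 at P60, both in CPM and per length. From 58.1 ± 13.97 CPM at E13 it was lower at E17 (26.5 ± 3.40 CPM) and lowest at P1 (17.9 ± 2.04 CPM). The P5 libraries held 22.6, 21.2, 21.3 and 20.8 CPM and the P14 libraries 176, 169, 175 and 108 CPM, a log2 difference of 2.87 ± 0.22. At P24 it held 124, 81.1, 122 and 212 CPM, which spans the P14 range. At P60 it held 856, 822, 895 and 716 CPM, far above P24, with a log2 difference of 2.61 ± 0.21. Per length the P60 level was 189 ± 17.8 RPKM, against 69.4 ± 12.4 RPKM for Sgk1, 30.0 ± 1.94 RPKM for Klf9 and 22.0 ± 0.756 RPKM for the receptor gene Nr3c1.

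Fkbp5, a co-chaperone that lowers the receptor's affinity for hormone and so forms a negative feedback loop (ENSMUSG00000024222, chromosome 17, 28399094 to 28517527, minus strand), was higher at E17 than at the stages on either side. It went from 47.9 ± 6.55 CPM at E13 to 69.1 ± 2.50 CPM at E17, then to 27.6 ± 1.45 CPM at P1 and 16.6 ± 1.57 CPM at P5, with no overlap between neighbouring stages. At P14 it held 25.3, 36.2, 36.1 and 21.2 CPM and at P24 23.7, 8.47, 11.4 and 24.4 CPM. These overlapped, and 2 of the P24 libraries lay below every P5 library. At P60 it held 81.4, 80.4, 109 and 78.0 CPM, a log2 difference of 2.36 ± 0.23 from P24, and every P60 library exceeded every E17 library.

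Sgk1, a kinase that regulates ion channels and transporters and is a target of both receptors (ENSMUSG00000019970, chromosome 10, 21882184 to 21999903, plus strand), is the gene whose promoter held the full element printed above. Its largest step by fold came early, as did that of Klf9 (E13 to E17, log2 difference 3.08 ± 0.19). Klf9 also stood higher at P1 than at E17, without overlap (0.86 ± 0.16). For Sgk1 the E17 libraries held 11.7, 13.7, 11.6 and 10.2 CPM and the P1 libraries 75.6, 106, 94.7 and 154 CPM. That step had a log2 difference of 3.19 ± 0.19, and it was the largest of the 6 adjacent steps for Sgk1 by fold. The libraries of P1 and P5 overlapped, as did those of P14 and P24, while every P14 library lay above every P5 library (log2 difference 0.61 ± 0.18), and the means of these stages were 107 to 163 CPM. At P60 it held 343, 425, 301 and 291 CPM, above all P24 libraries, and the log2 difference was 1.37 ± 0.18.

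Klf9, a Krüppel-like transcription factor induced by glucocorticoids and by thyroid hormone (ENSMUSG00000033863, chromosome 19, 23141226 to 23168134, plus strand), was lowest at E13, at 2.23 ± 1.02 CPM, and stood at 19.3 ± 1.07 CPM at E17. It was 34.9 ± 1.99 CPM at P1 and 37.1 ± 1.58 CPM at P5, where the libraries overlapped. P14 held 101, 99.9, 87.0 and 81.2 CPM and P24 a lower 69.1, 59.8, 56.1 and 77.2 CPM, without overlap (log2 difference -0.50 ± 0.16). P60 held 154, 138, 151 and 135 CPM, a log2 difference of 1.14 ± 0.16 from P24.

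Pdk4, a kinase that inhibits pyruvate dehydrogenase and shifts fuel use towards fatty acids (ENSMUSG00000019577, chromosome 6, 5483351 to 5496309, minus strand), was also higher at E17 than at the stages on either side, with 1.31 ± 0.573 CPM at E13, 4.87 ± 0.721 CPM at E17 and 2.22 ± 0.327 CPM at P1, without overlap. The P5 libraries held 2.04, 2.86, 1.41 and 1.98 CPM and the P14 libraries 19.1, 23.1, 25.0 and 12.95 CPM, a log2 difference of 3.25 ± 0.25. P24 was at 20.6 ± 3.25 CPM and overlapped with P14. P60 held 114, 75.6, 92.1 and 63.1 CPM, all above P24, with a log2 difference of 2.06 ± 0.23.

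**Figure D2:**
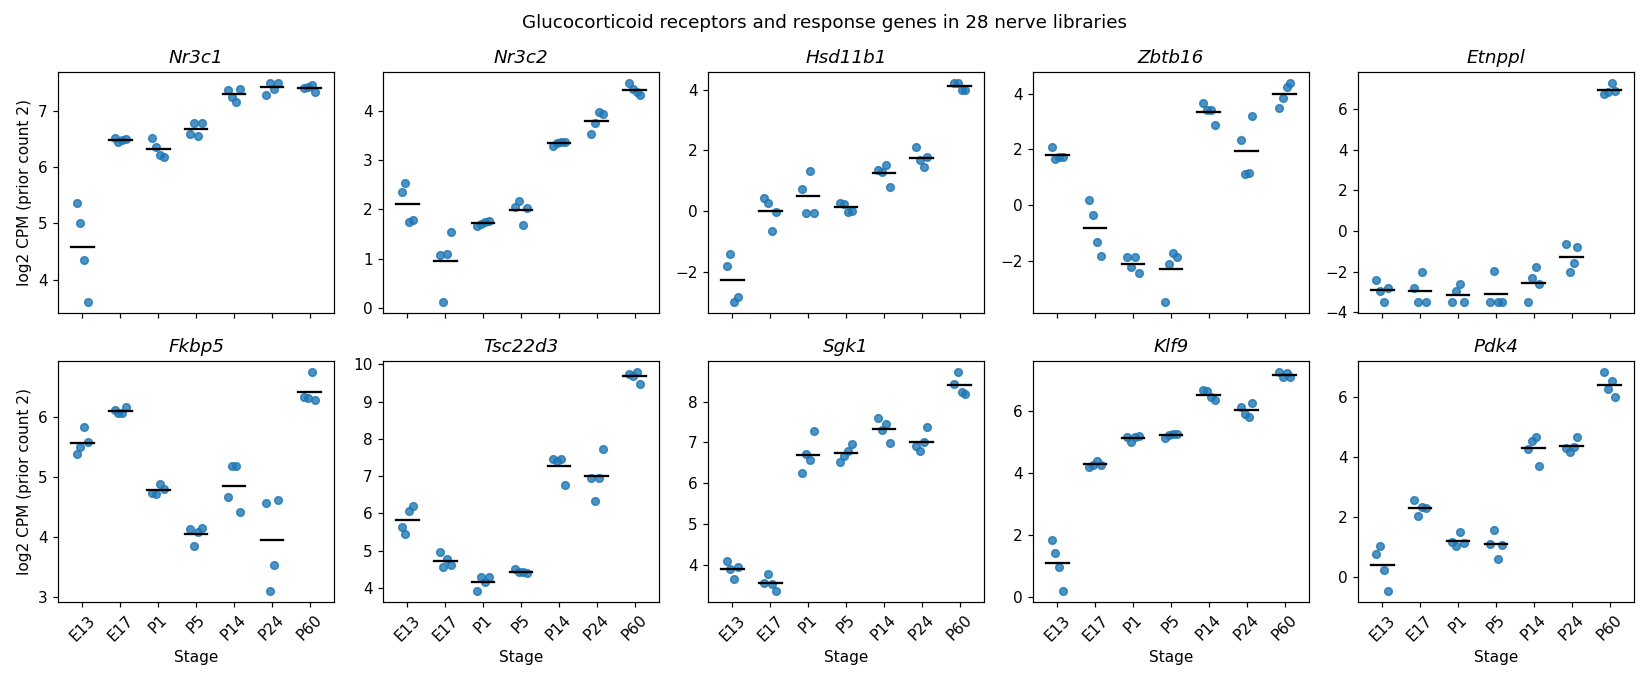
Level of each of the 10 genes as log2 CPM (prior count 2) by stage, 1 point per library and a bar at the mean of 4 libraries; each panel has its own axis. The 7 response genes, Hsd11b1 and Nr3c2 had their highest mean at P60, where the libraries of Zbtb16 overlapped with P14, the Nr3c1 libraries of P14, P24 and P60 overlapped, and Etnppl lay at 0 to 13 counts in every library before P60.

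Members were also counted by their calls in each step. Calls needed an adjusted p below 0.05 together with a change of 2-fold or more. From P5 to P14, 6 of the 10 were called, all higher (Nr3c2, Hsd11b1, Zbtb16, Tsc22d3, Klf9 and Pdk4), where 12% of all 17700 genes tested were called, 7.11% higher and 4.91% lower. From P24 to P60, 8 were called, all higher (Hsd11b1 and the 7 response genes), where 5.96% of all genes were called, 2.55% higher and 3.41% lower. From P1 to P5, 0 members were called, against 5.84% of all genes (4.05% higher and 1.79% lower). From P14 to P24, 0 were called, against 2.65% of all genes (1.51% higher and 1.14% lower). At an unadjusted p under 0.05 edgeR gave 1 member from P1 to P5 (lower) and 5 from P14 to P24 (2 higher and 3 lower). DESeq2 and limma-voom called 0 from P1 to P5 and 2 and 1 from P14 to P24, and without P24 replicate 4 edgeR called 2 there (Zbtb16 and Fkbp5). Between P1 and P60 all 10 were called higher, against 35.5% of all genes called (20.3% higher and 15.2% lower). The 4 and 4 libraries did not overlap for 9 members from P5 to P14 (43.6% of all genes), 9 from P24 to P60 (27.2%), 3 from P1 to P5 (30.4%), 2 from P14 to P24 (16.5%) and 10 from P1 to P60 (60.7%). The members were selected with these levels in view, so nothing is read from these counts.

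The median log2 difference of the 10 genes was 1.25 from P5 to P14 and 1.94 from P24 to P60, where the median of all genes was 0 and -0.01. It was 0.04 from P1 to P5 and -0.09 from P14 to P24. Hsd11b1, Zbtb16, Tsc22d3, Klf9 and Pdk4 were called both from P5 to P14 and from P24 to P60. The share of all genes called in both steps was not counted, so nothing is read from this overlap. Fkbp5 and Sgk1 were 0.84 ± 0.22 and 0.61 ± 0.18 higher at P14 than at P5, and Etnppl was called only from P24 to P60. Nr3c1 was called in neither step and Nr3c2 only in the first.

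**Figure D3:**
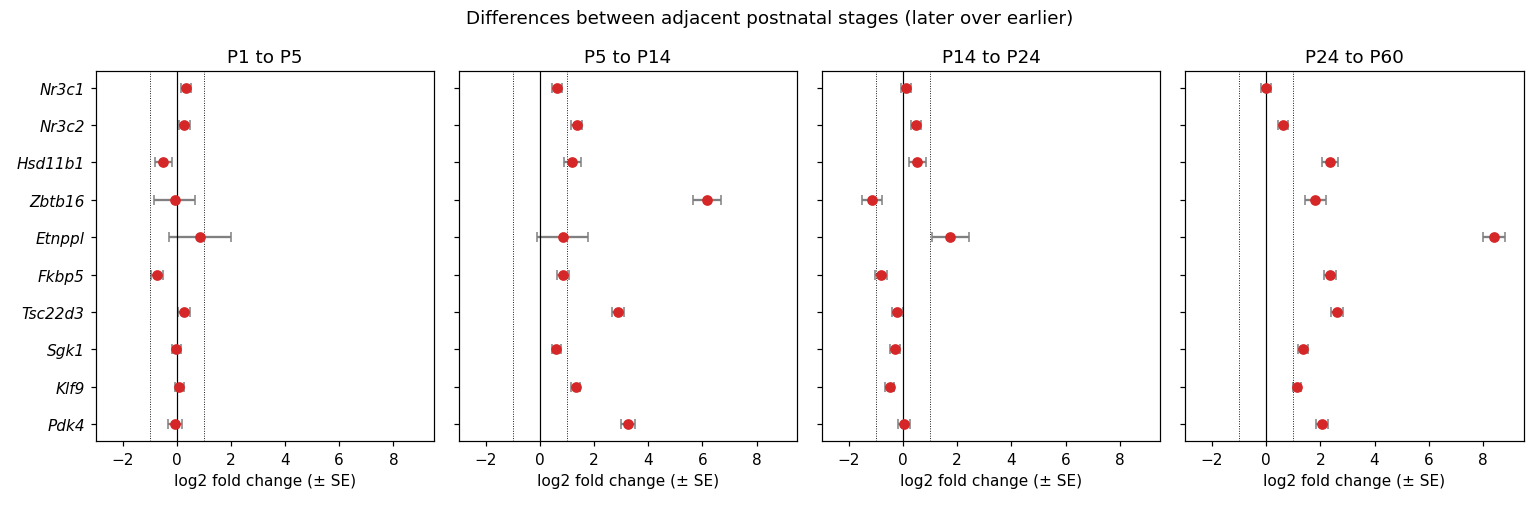
Log2 fold change (later over earlier stage, point, with its SE as error bar) of the 10 genes in the 4 adjacent postnatal comparisons; dotted lines mark a 2-fold difference. The points of P5 to P14 and P24 to P60 lie to the right of 0 for 9 or more genes, with Zbtb16 at 6.17 and Etnppl at 8.42, and those of P1 to P5 and P14 to P24 lie mostly within the dotted lines.

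The embryonic and perinatal steps were mixed. From E13 to E17, 7 members were called (35.5% of all genes were, 14.2% higher and 21.2% lower) and 8 did not overlap (46.8% of all genes), with Nr3c1, Hsd11b1, Klf9 and Pdk4 higher and Nr3c2, Zbtb16 and Tsc22d3 lower. From E17 to P1, 4 were called (11.7% of all genes were, 6.31% higher and 5.41% lower) and 7 did not overlap (38.2% of all genes). Sgk1 was higher, and Zbtb16 (log2 difference -1.90 ± 0.63), Fkbp5 (-1.32 ± 0.22) and Pdk4 (-1.13 ± 0.25) were lower. The Zbtb16 call was lost, leaving 3, with limma-voom, with only these stages in the fit, without the 3 GC-affected libraries, and without E17 replicate 1 or 2 or P1 replicate 2 or 4. Around birth the response genes went in opposite directions while Nr3c1 differed by -0.16 ± 0.19.

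Other glucocorticoid response genes, 33 of a list of 34 (Tat could not be tested), were compared in the same fit. From P5 to P14, 17 of 33 rose and 0 fell (0 lower at an unadjusted p under 0.05 in edgeR, and 0 lower by DESeq2 and limma-voom), with a median log2 fold change of 1.02 against 0 for all genes. Markers of several cell types differed in the same step: the sum of the perineurial and epineurial markers was 180 to 245 CPM at P5 and 487 to 597 CPM at P14 (4 of 6 rose), that of the endothelial markers 230 to 265 and 297 to 375 CPM (1 of 6 rose, Cldn5), and that of the Schwann cell markers 32613 to 39326 and 54812 to 70334 CPM (1 of 5 rose, S100b), all without overlap. The adipocyte marker sums, 11.2 to 41.3 and 20.0 to 107 CPM, overlapped, and 3 of 6 rose (Cidec, Lep and Fabp4), and of the macrophage markers 1 of 6 fell (Cx3cr1). Skeletal muscle markers summed to 0.750 to 2.70 CPM at P5 and 3.59 to 7.91 CPM at P14. The part of these cells in the response genes was not tested. From P24 to P60, 12 rose and 0 fell (2 lower at an unadjusted p under 0.05 in edgeR, and 0 lower by DESeq2 and limma-voom), with a median of 0.85 against -0.01. From P14 to P24, 1 rose: Lcn2, an iron-binding lipocalin, a call that was lost without P14 replicate 1, 2 or 4 or P24 replicate 1, 2 or 3. Without P24 replicate 4 there were 2 calls, Gadd45b and Hif3a. From P1 to P60, 28 rose and 1 (Tgfbr3) fell, with a median of 2.39 against -0.02. The list was written with earlier results of these data known, so its direction is not independent evidence.

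Among those of these genes with at least 10 CPM in the higher stage, Sult1a1, a sulfotransferase, rose most from P5 to P14, from 13.3 ± 1.42 to 170 ± 12.5 CPM (log2 fold change 3.67 ± 0.14, adjusted p = 5.2e-16), followed by Bcl6, a transcriptional repressor, from 3.28 ± 0.709 to 15.6 ± 1.53 CPM (2.26 ± 0.22, adjusted p = 1.3e-08). From P24 to P60 the first was Plin4, a lipid droplet protein of adipocytes and muscle, from 13.51 ± 7.06 to 122 ± 50.2 CPM (3.18 ± 0.61, adjusted p = 0.00058). The second was Arid5b, a chromatin factor, from 41.0 ± 3.37 to 163 ± 12.02 CPM (1.99 ± 0.17, adjusted p = 1.8e-09). From P1 to P60 the first were Plin4, which had 0 to 3 counts per library at P1, and Sult1a1, from 12.8 ± 1.47 to 278 ± 23.0 CPM (4.43 ± 0.15, adjusted p = 2.8e-19), while Tgfbr3, a coreceptor of transforming growth factor beta, fell from 733 ± 21.1 to 315 ± 16.4 CPM (-1.22 ± 0.15, adjusted p = 5.3e-08). The 8 genes Bcl6, Errfi1, Hif3a, Klf15, Map3k6, Mt2, Per1 and Plin4 rose both from P5 to P14 and from P24 to P60. They made up 47.1% of the 17 and 66.7% of the 12. The share of all genes that rose at both steps was not counted, so nothing is read from these percentages. Chosen after their values were seen, Per1, a clock gene with a glucocorticoid response element, went from 56.6 to 182 CPM from P24 to P60 (1.68, adjusted p = 3.9e-05), and Klf15, a regulator of amino acid and lipid use, from 37.0 to 106 CPM (1.52, adjusted p = 7.8e-06).

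The earlier steps of this list were again mixed. From E13 to E17, 10 of the 33 rose and 7 fell (14.2% and 21.2% of all genes did). Tgfbr3 rose from 83.7 ± 30.2 to 863 ± 7.10 CPM (3.37 ± 0.16, adjusted p = 6.7e-16), and Hif3a, a hypoxia-inducible factor, rose from 32.5 ± 7.87 to 182 ± 5.21 CPM (2.48 ± 0.22, adjusted p = 2.9e-10). Glul, glutamine synthetase, fell from 193 ± 34.4 to 39.5 ± 1.85 CPM (-2.29 ± 0.11, adjusted p = 2.2e-15), and Angptl4, an inhibitor of lipoprotein lipase, fell from 26.8 ± 8.39 to 7.999 ± 1.14 CPM (-1.74 ± 0.20, adjusted p = 3.6e-08).

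From E17 to P1, 7 rose and 2 fell (6.31% and 5.41% of all genes did). The falls were Hif3a, from 182 to 14.7 ± 2.23 CPM (-3.62 ± 0.24, adjusted p = 2.1e-12), and Ddit4, an inhibitor of mTOR signalling, from 80.1 ± 3.17 to 14.9 ± 3.79 CPM (-2.43 ± 0.23, adjusted p = 5.1e-09). Under the same limit of 10 CPM, the largest rises were Fam107a, an actin-binding stress response gene (4.04 ± 0.24, adjusted p = 2.3e-13), and Mt2, a metallothionein (3.37 ± 0.44, adjusted p = 1.1e-06). From P1 to P5, Fam107a (2.84 ± 0.19, adjusted p = 1.7e-11) and Glul (1.17 ± 0.11, adjusted p = 1.1e-08) rose, while Hif3a (-1.60 ± 0.23, adjusted p = 1.1e-05) and Angptl4 (-1.14 ± 0.20, adjusted p = 0.00012) fell. In all, 4 of the 33 rose and 2 fell in this step (4.05% and 1.79% of all genes did). Sums of several markers also differed from E17 to P1, without overlap. Endothelial markers summed to 299 to 354 and 171 to 197 CPM, and Schwann cell markers to 1895 to 2225 and 7186 to 15944 CPM. Perineurial and epineurial markers summed to 251 to 286 and 151 to 235 CPM. The macrophage and endoneurial fibroblast sums overlapped. The part of these cells in the response genes was not tested.

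**Figure D4:**
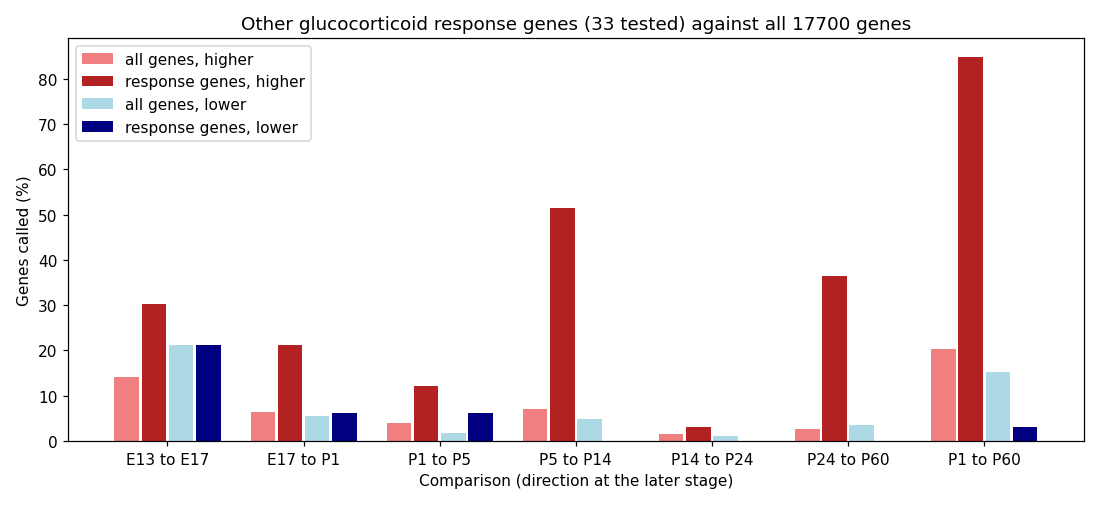
Share (%) of the 33 other glucocorticoid response genes tested, and of all 17700 genes tested, that were called higher or lower at the later stage of each comparison (bars from 0). Response genes called higher made up 51.5% from P5 to P14 and 36.4% from P24 to P60, where all genes gave 7.11% and 2.55%, and none was called lower in these comparisons.

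The proteins around the receptors were read from 2 further lists. Of 11 receptor chaperones (Hsp90aa1, Hsp90ab1 and others), edgeR called 0 in each of the 7 comparisons. At an unadjusted p under 0.05, 0 to 7 of them differed per comparison, with 7 lower at E17 than at E13 and 3 lower at P60 than at P24, and their median log2 fold change from P24 to P60 was -0.28. Of 12 coregulators, 1 was called in 1 comparison: Smarca4, the ATPase of a chromatin remodelling complex, fell from 152 ± 23.2 CPM at P1 to 72.4 ± 3.88 CPM at P60 (-1.07 ± 0.15, adjusted p = 4.9e-07). Of 13 genes of steroid enzymes and transport, 8 could be tested, and Cyp11b1 and Cyp11b2, the last enzymes of adrenal steroid synthesis, were at 0 in every library of the 7 stages. Abcb1a, an efflux pump of the blood-nerve barrier that exports glucocorticoids, rose from 3.94 ± 0.386 CPM at P1 to 166 ± 16.0 CPM at P60 (5.39 ± 0.26, adjusted p = 4.8e-16). Srd5a1, a steroid reductase, fell from 63.9 ± 9.32 CPM at P24 to 24.9 ± 2.98 CPM at P60 (-1.36 ± 0.14, adjusted p = 6.6e-08).

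Of the other steroid receptors, 3 are given here, and each changed between P1 and P60, at low levels. Esr1, an oestrogen receptor, rose from 0.314 to 2.55 CPM (2.99 ± 0.65, adjusted p = 2.8e-04). Esr2, another oestrogen receptor, rose to 0.622 CPM from a level near 0 (adjusted p = 3.3e-07), and Pgr, the progesterone receptor, fell from 4.65 to 0.419 CPM (-3.45 ± 0.36, adjusted p = 4.8e-09). Esr2 had higher means at P14 (1.48 CPM) and P24 (1.56 CPM) than at P60. These 3 receptors were named after their values were seen.

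Clock genes were examined because the glucocorticoid rhythm and the clock are coupled and the hour of dissection is not given. Of 14, 3 were called from P24 to P60: Per2 (1.67 ± 0.20, adjusted p = 5.6e-07) and Cry2 (1.14 ± 0.13, adjusted p = 3.6e-07) rose, and Npas2 (-1.28 ± 0.34, adjusted p = 0.0093) fell. From P14 to P24, edgeR called 0 members (DESeq2 called 2 and limma-voom 1). Of the 14 clock genes edgeR called 6, against 2.65% of all genes. Nr1d1, Ciart, Dbp and Hlf rose, and Cry1 and Nfil3 fell. Nr1d1, a repressor of the clock, went from 18.9 ± 3.24 to 81.0 ± 9.72 CPM in that step (2.10 ± 0.20, adjusted p = 1.9e-07). From P5 to P14, 2 rose (Hlf and Per2), and from P1 to P5, 1 did (Dbp). From E13 to E17 (35.5% of all genes called), 3 rose and 3 fell, and from E17 to P1 (11.7%), 3 rose and 1 fell. Between P1 and P60, 9 rose and 2 fell (20.3% and 15.2% of all genes did). The largest rise was that of Hlf, an output transcription factor of the clock. It went from 2.80 ± 0.142 to 48.5 ± 4.91 CPM (4.11 ± 0.18, adjusted p = 8.6e-17 by edgeR). The summed level of the 14 genes was 539 to 583 CPM in the P14 libraries, 730 to 793 CPM in the P24 libraries and 1075 to 1167 CPM in those of P60. The part of the clock in the levels of the response genes was not tested. Of 8 immediate early genes, which respond to handling and dissection, 1 was called from P24 to P60: Junb rose from 2.45 to 6.57 CPM (1.43 ± 0.39, adjusted p = 0.011).

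Markers of other cell types were read in the same libraries, and from P24 to P60 the calls among them were falls of Col1a1 and Cx3cr1. The summed level of 6 adipocyte markers (Adipoq, Plin1, Cidec, Lep, Retn and Fabp4) was 20.0 to 107 CPM at P14, 8.79 to 203 CPM at P24 and 125 to 318 CPM at P60. From P24 to P60, 0 of the 6 were called (2 higher at an unadjusted p under 0.05 in edgeR), with a median log2 fold change of 1.43, and all 6 rose from P1 to P60. The sum of 6 perineurial and epineurial markers was 544 to 868 CPM at P24 and 1012 to 1430 CPM at P60. Most of that sum was Itgb4 (means of 423 and 814 CPM) and Slc2a1 (160 and 256 CPM), while the epineurial Clec3b (30.0 and 11.1 CPM), Dpt (35.5 and 17.6 CPM) and Pcolce2 (6.18 and 5.91 CPM) had lower means at P60. The sum of 6 endothelial markers was 274 to 405 CPM and 405 to 447 CPM, and 0 of 6 were called in both lists (2 higher and 1 lower in each at an unadjusted p under 0.05). The summed Schwann cell markers were 47036 to 59713 CPM at P24 and 32866 to 44851 CPM at P60, with 0 of 5 called (1, Mbp, lower at an unadjusted p under 0.05). Mbp made up most of it, with means of 42660 and 28317 CPM. Prx (9344 and 8021 CPM) and Ncmap (1064 and 997 CPM) also had lower means at P60. Sox10 (390 and 449 CPM) and S100b (811 and 972 CPM) had higher means at P60. The sum of 6 endoneurial fibroblast markers was 1786 to 3320 CPM at P24 and 1024 to 1265 CPM at P60, where Col1a1, a fibrillar collagen, fell from 2594 to 934 CPM (-1.47 ± 0.26, adjusted p = 2e-04) and made up most of the sum. Of the other 5, Pdgfra (153 and 182 CPM), Etv1 (18.9 and 22.8 CPM), Osr2 (11.8 and 15.1 CPM) and Wif1 (0.0748 and 0.149 CPM) had higher means at P60 and Sox9 (12.2 and 8.46 CPM) a lower one, none of them called. Macrophage markers summed to 142 to 234 and 140 to 194 CPM, where Cx3cr1, a chemokine receptor, fell (-1.35 ± 0.20, adjusted p = 1.6e-05), and skeletal muscle markers to 0.837 to 2.48 and 2.24 to 5.48 CPM. No marker of these lists was at 0 throughout a stage from P5 on. The part of these cells in the levels of the members was not tested.

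In 4 libraries of P14 to P60, named after their values were seen, 5 or 6 of the 7 response genes had their lowest or highest value of the stage. From E13 to P5, no library held more than 4 of the highest or 3 of the lowest values. In P14 replicate 4, 6 of the 7 response genes had their lowest value of the stage (all but Etnppl). In P24 replicate 2, 6 of the 7 had their lowest value (all but Klf9), and in P24 replicate 4, 6 of the 7 had their highest (all but Etnppl). In P60 replicate 4, 5 of the 7 had their lowest, while Zbtb16 had its highest. On the log2 scale, P24 replicate 2 lay 0.82 (Zbtb16), 0.85 (Fkbp5) and 0.65 (Tsc22d3) below the mean of its stage, and P24 replicate 4 lay 1.26, 0.66 and 0.74 above it. P14 replicate 4 and P24 replicate 2 were also the libraries with the lowest adipocyte marker sums of their stages, at 20.0 and 8.79 CPM, whereas P60 replicate 4 had the highest of its stage, at 318 CPM. P24 replicate 2 also had its stage's lowest perineurial and epineurial (544 CPM), endothelial (274 CPM) and macrophage sums (142 CPM). Its Schwann cell sum was the highest (59713 CPM). In P24 replicate 4 the perineurial and epineurial (868 CPM) and macrophage sums (234 CPM) were the highest. Its Schwann cell sum was the lowest (47036 CPM). P14 replicate 4 had the highest perineurial and epineurial (597 CPM) and macrophage sums (214 CPM) of its stage. The part of adipose tissue, other cells, sex or hour of dissection in these deviations was not tested.

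**Figure D5:**
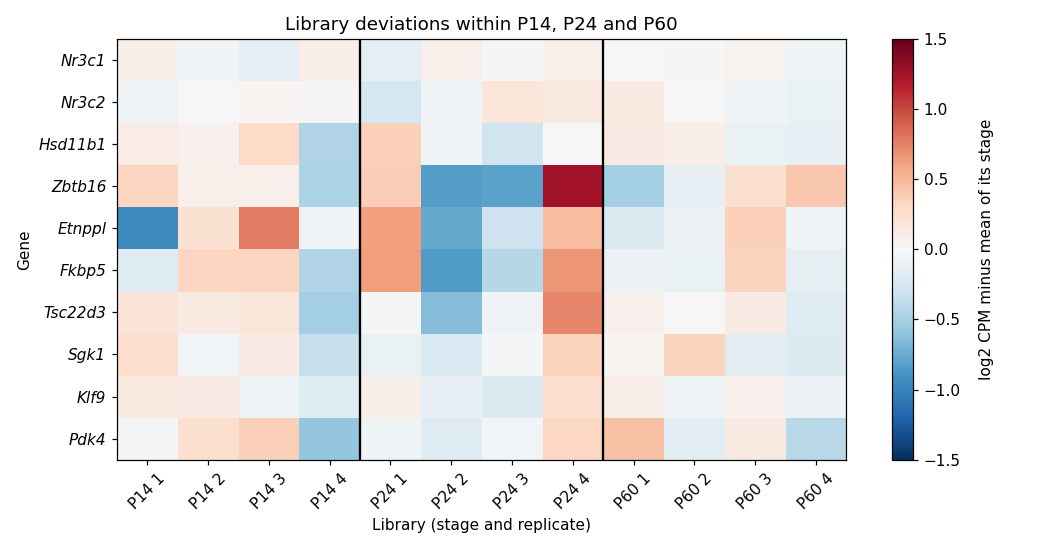
Deviation of each library from the mean of its stage (colour, log2 CPM) for the 10 genes in the 12 libraries of P14, P24 and P60, each library named by stage and replicate. P24 replicate 4 is above and P24 replicate 2 below the stage mean for most response genes, by 1.26 and -0.82 for Zbtb16, while the Nr3c1 row shows little deviation.

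Over the 28 libraries with the stage means removed, Fkbp5 and Tsc22d3 had the closest course of the response genes, with a Pearson r of 0.70 (0.73 in the 24 libraries without E13). Nr3c1 and Klf9 had an r of 0.87 that was 0.03 without E13, and both followed the GC slope of the libraries (r of -0.87 and -0.78). The median over the 45 pairs of members was 0.21, and 0.19 without E13. The libraries share depth and dissection, and these values are descriptions.

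The genes with the course most like each member were sought by Pearson r of log2 CPM over the 28 libraries, among 13346 genes. For Nr3c1 these were Sptbn1 (r = 0.993) and Igip (0.988), and for Nr3c2 Dtna (0.970) and Cbx7 (0.967). For Hsd11b1 they were Mertk (0.969) and Slc44a2 (0.950), for Zbtb16 Sgpp2 (0.938) and Errfi1 (0.928), and for Etnppl Col24a1 (0.921) and Sfxn3 (0.920). Tsc22d3 was followed most closely by Slc10a6 (0.975) and Per2 (0.969), Sgk1 by Fam53b (0.974) and Fnbp1 (0.969), Klf9 by Spg20 (0.988) and Cobll1 (0.987), and Pdk4 by Mylip (0.963) and Bcl6 (0.958). Fkbp5 had the least close partners, Hif3a (0.820) and Frmd4a (0.782). Of these 20 genes, 4 were in the list of other response genes (Mertk, Errfi1, Hif3a and Bcl6) and 1, Per2, in that of clock genes. The 28 libraries share 7 stages, which set most of each r.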

How the data were processed

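The deposited raw counts per gene (not normalized by the authors) of 28 bulk libraries were used. The authors sequenced stranded poly-A libraries single-end, aligned with STAR 2.6.1c and counted with featureCounts; the strand setting is not given in the sources used here. The labels name the build GRCm38.p5, whereas the methods name a human build. Symbols, lengths and coordinates came from GENCODE M21 (GRCm38), matched to 41519 of 41605 identifiers (99.8%).

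Groups followed the labels. Genes were filtered by filterByExpr (17700 kept, all 10 members included), scaled by TMM and fitted in edgeR 4.0.16 (R 4.3.3, quasi-likelihood, stage as the only term, all libraries), with Benjamini-Hochberg adjustment over all genes; a call needed an adjusted p under 0.05 and a 2-fold change. The SE of a log2 fold change is its size over the square root of F. The fit was tested on simulated data. p-values measure the spread between samples, each an independent animal or pool per the study. limma 3.58.1 and DESeq2 1.42.0 were alternatives, besides other filters, scalings, sample sets and a replicate block.

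Named genes were all 10 members; of other response genes, the 2 largest rises and falls per comparison among called genes with at least 10 CPM in the higher stage; of each other list, the largest rise and fall over all comparisons, given where they bear on the members; and the 2 most alike genes per member (mean of at least 1 CPM). Other genes given with values were chosen after their values were seen. The members and lists were chosen with earlier results of these data known. Bounds against 3 counts cover counting error only. Samples of the study other than this timeline were not analysed here. A marker of Schwann cells and a steroid receptor of the lists are not reported here.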

Additional observations from a re-analysis of the deposited data

Results flagged for a closer look

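In each stage, the highest or lowest of the 4 libraries was compared with its nearest neighbour, and 4 of the 70 groups of 4 libraries held a library whose gap to the others passed Dixon's critical value. Chance alone passes about 1 group in 20. Tsc22d3 in P14 replicate 4 was at 108 CPM, where the other 3 libraries held 169 to 176 CPM; this library was also lowest for Fkbp5, Klf9, Pdk4, Sgk1 and Zbtb16. Fkbp5 in P60 replicate 3 was at 109 CPM, with the others at 78.0 to 81.4 CPM. Zbtb16 in E13 replicate 1, a library whose counts followed GC content, was at 4.14 CPM, with the others at 3.03 to 3.21 CPM. Etnppl in P5 replicate 2 was at 0.172 CPM (6 counts), where the others held 0 counts.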

How the results depend on the processing

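No member fold change past the threshold reversed. Of 1243 values under alternatives, called or not, 1208 moved by less than the spread between replicates (1 SD) and 35 by more. Uncalled differences changed sign under some alternatives: those of Etnppl from E13 to E17 (0.32, range -1.17 to 1.48), E17 to P1 (-1.07, -1.95 to 0.42) and P1 to P5 (0.87, -2.53 to 1.75), and, within -0.59 to 0.28, those of Klf9, Pdk4, Sgk1 and Zbtb16 from P1 to P5, Pdk4 from P14 to P24 and Nr3c1 from P24 to P60. The calls from P5 to P14, P24 to P60 and P1 to P60 kept their number within 1.5 times, for members under every alternative run. The members called from P14 to P24, 0 here, were 2 with the DESeq2 Wald test (Zbtb16 and Etnppl), 1 each with limma-voom, without the E13 libraries and without the 3 libraries whose counts followed GC content (Zbtb16 in all), 1 without a fold minimum (Fkbp5), and 0 to 2 over leaving out each library, with 2 (Zbtb16 and Fkbp5) without P24 replicate 4. The other response genes called there, 1 here, were 2 with limma-voom (Plin4 and Lcn2) and 0 to 2 over leaving out each library, with 0 without P14 replicate 1, 2 or 4 or P24 replicate 1, 2 or 3, and 2 (Gadd45b and Hif3a) without P24 replicate 4. Without a fold minimum, 7 members were called from E17 to P1 and 1 from P1 to P5 (Fkbp5), and the other response genes numbered 14, 14, 26, 6 and 24 from E17 to P1 through P24 to P60. Scaling by library size alone put the median of all genes at -0.33 to 0.10 and put the highest Nr3c1 mean at P60, as did DESeq2 size factors. Samples share replicate numbers only: over 84 same-numbered pairs of libraries the deviations correlated at -0.20 to 0.57, with 33 over 0.1. The replicate block gave 6 members from P5 to P14 and 8 from P24 to P60, and changed no count by over 1.5 times. At 0 to 6 counts per library, as for Etnppl before P24 and Zbtb16 at P1 and P5, depth limits any order of stages.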
